A study of Mus musculus with 6 samples.

Results

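Neurexins, neuroligins and cerebellins are proteins that join the presynaptic and postsynaptic membranes of a synapse. The RNAs of 8 of their genes were followed in single cells of the mouse olfactory bulb. The 8 genes, of 18560 in the count table, are the neurexins Nrxn2 and Nrxn3, the neuroligins Nlgn1, Nlgn2 and Nlgn3, and the cerebellins Cbln1, Cbln2 and Cbln4. They were taken by name and not by their values.

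Neurexins sit on the presynaptic membrane, bind calcium channels and scaffolds inside the terminal, and reach across the cleft to many partners. Neuroligins are the classic partners on the postsynaptic side. Neuroligin 1 is known mainly from excitatory synapses, neuroligin 2 from inhibitory synapses, and neuroligin 3 from both, and astrocytes and oligodendrocyte precursors also make neuroligins. Cerebellins are secreted proteins of the C1q family that bind neurexins on one side and postsynaptic receptors such as DCC and neogenin on the other. The olfactory bulb receives new granule and periglomerular interneurons throughout life, which have to build such synapses as they mature, and its output leaves through mitral and tufted (M/T) cells.

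The bulbs came from C57BL/6NJ mice 14 weeks of age, males and females, and no allele or transgene is named for any group. There were 3 groups of 2 libraries each, and every library was a pool of mice. Control mice were not manipulated according to the sample labels, although the study's text also describes the open side of occluded mice as the control. Naris occluded mice had 1 nostril closed with a plug for 6 weeks, so that the bulb of that side was deprived of odor input. Olfactory trained mice were deprived of water and learned to discriminate rewarded from unrewarded odors over 6 weeks. The pieces of tissue also held some olfactory epithelium.

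The libraries held between 6705 and 10570 annotated cells, between 11841160 and 17065083 UMIs (unique molecular identifiers, each counting 1 captured RNA molecule), and between 1028 and 1724 UMIs in the median cell. Trained replicates are numbered by the library column of the annotation, against which the starts of the cell names are reversed, so which trained library is 1 or 2 is uncertain. The trained replicate 1 library had the lowest median depth and, at 14.4%, the highest median share of mitochondrial UMIs. Of 49931 different cell barcodes, 1461 were seen in 2 or more libraries. Levels are given for 40 clusters with 50671 cells, namely the 18 neuronal clusters and the 22 clusters of other cells in the deposited annotations, under their deposited names. A level is the number of UMIs of a gene per 1000000 UMIs of the cluster (CPM), computed in each library, with the SD over the 6 libraries. Several of the markers checked sat where the names place them in the clusters that matter most here, and others did not. Calb1 was highest in the periglomerular cluster n08-PGC-3, and Cdhr1 and Slc17a7 in the M/T cluster n17-M/TC-3. Of the other periglomerular markers, Th was highest in n05-PGC-2 and Calb2 in the granule cluster n03-GC-1 (13129 CPM). The M/T marker Eomes was higher in n16-M/TC-2 (739 CPM) than in n17 (175 CPM). Pdgfra and Olig2 were highest in the oligodendrocyte precursors (OPC), although the precursor marker Cspg4 was higher in Mural2 (334 CPM) than in OPC (254 CPM). Sox10, listed as a marker of olfactory ensheathing cells, was higher in OPC (412 CPM) than in OEC1 (298 CPM). The external plexiform layer interneurons of n18-EPL-IN led in Slc32a1 but had only 64.0 ± 67.4 CPM of their marker Pvalb, and their other marker Crh was higher in n17 (186 CPM) than in n18 (138 CPM). The cluster held 161 cells. The cells and genes that defined the clusters are those measured here, so differences between clusters are descriptions and carry no test. The libraries read the 3′ ends of transcripts, so the long and short forms of a neurexin and its splice variants could not be told apart, and levels were not compared between genes.

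The 8 genes were spread very unequally between neurons and other cells. Neurons held 34.6% of the UMIs of the 40 clusters and 42.9% of their cells. Their share was 85.7% of the 20871 UMIs of Nrxn3, 66.2% of the 15610 UMIs of Nrxn2, 62.4% of the 3212 UMIs of Nlgn1 and 54.8% of the 2973 UMIs of Nlgn2. Nlgn3 went the other way, with 31.2% of its 6215 UMIs in neurons. The cerebellins were rare and neuronal. Neurons held 81.6% of the 743 UMIs of Cbln1, 82.7% of the 1399 UMIs of Cbln2 and 86.8% of the 531 UMIs of Cbln4.

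**Figure D1:**
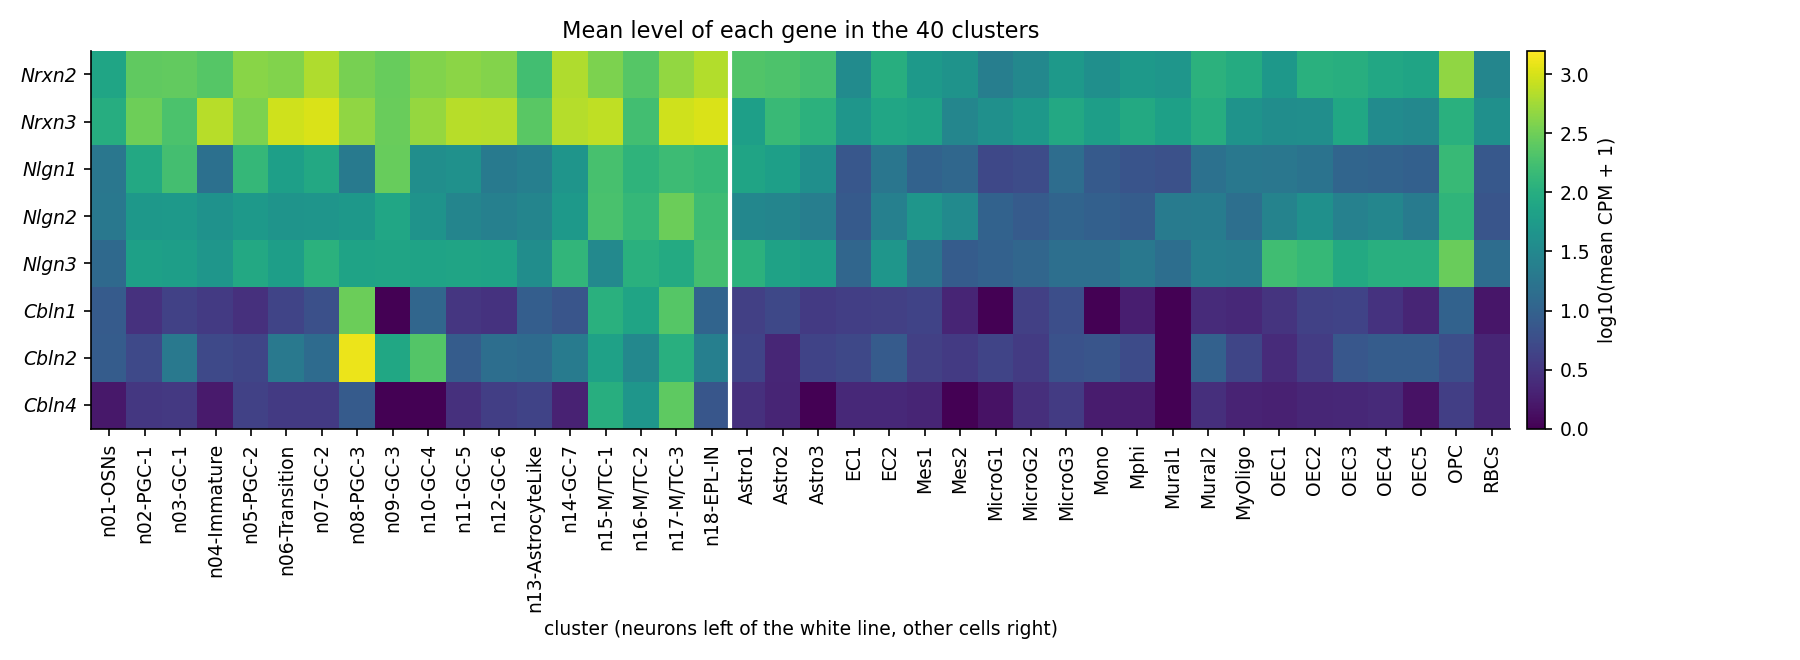
Mean level of each gene over 6 libraries in the 40 clusters, on a color scale of log10(CPM + 1), with neuronal clusters left of the white line. Both neurexins are bright in most neuronal clusters, Nlgn3 is brightest in OPC at 297 CPM, and each cerebellin is bright in only a few neuronal clusters.

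Nrxn2 (chromosome 19, 6418756 to 6533217, GRCm38.p6) was highest in interneurons. Its level was 670 ± 145 CPM in n18-EPL-IN (mean and SD of 6 libraries), 664 ± 54.5 CPM in the granule cluster n07-GC-2 and 655 ± 40.8 CPM in another granule cluster, n14-GC-7. These 3 clusters did not differ beyond their spread, although among cells with at least 1000 UMIs the level of n14 was 940 CPM. In n07-GC-2, a granule cell cluster with 2310 UMIs of Nrxn2, the libraries gave 618 and 614 CPM in the control, 681 and 722 CPM in the naris occluded and 619 and 732 CPM in the trained group. The values of the conditions lay close together, and in every library n07 was far above the 229 ± 10.6 CPM of n04-Immature. The place of n18 depended on the scaling. With TMM factors, which scale clusters on their shared genes, n18 fell to 376 CPM and n07 led with 608 CPM. Next in order were n17-M/TC-3 (479 ± 34.9 CPM), OPC (472 ± 69.9 CPM) and n11-GC-5 (436 ± 55.3 CPM), which did not differ beyond their spread. OPC was the only cluster outside the neurons at this level. The astrocyte clusters that followed had 214 ± 18.5 CPM (Astro1) and 204 ± 21.2 CPM (Astro2), and MicroG1, the lowest of all clusters, had 22.5 ± 11.5 CPM.

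Nrxn3 (chromosome 12, 88722701 to 90334935) was the most neuronal of the neurexins and neuroligins measured. The highest clusters were n18-EPL-IN (1043 ± 155 CPM), n07-GC-2 (1030 ± 106 CPM), n17-M/TC-3 (933 ± 134 CPM) and n06-Transition (922 ± 80.4 CPM), each within the spread of the next. These 4 clusters and n14 were also shallow, with medians between 690 and 882 UMIs and between 15.0% and 29.7% of mitochondrial UMIs, and the part of this in their levels was not tested. In n18 the libraries gave 1287 and 990 CPM in the control, 1032 and 1159 CPM in the naris occluded and 918 and 875 CPM in the trained group, from 181 UMIs in all. Both trained libraries were the lowest of the 6 there, but with TMM factors the mean of n18 was 589 CPM, below the 941 CPM of n07. In n07, with 3557 UMIs, the libraries gave 855 and 994 CPM, 1030 and 1176 CPM, and 1043 and 1081 CPM in the same order of groups. The next neuronal clusters were n15-M/TC-1 (787 ± 315 CPM), n11-GC-5 and n04-Immature (717 ± 42.1 and 717 ± 38.3 CPM), n14-GC-7 (706 ± 129 CPM) and n12-GC-6 (703 ± 137 CPM). The lower neuronal clusters had much less. The calretinin-rich granule cells of n03-GC-1 had 196 ± 14.1 CPM, with every library between 183 and 221 CPM, and the sensory neurons of n01-OSNs had 96.7 ± 22.5 CPM. Outside the neurons the highest cluster was Astro2, with 148 ± 26.0 CPM.

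The ratio of the neurexins to each other was compared between clusters that had at least 5 UMIs of both in every library. The balance moved widely. The log2 ratio of Nrxn3 to Nrxn2 UMIs was 1.64 ± 0.07 in n04-Immature, 1.25 ± 0.22 in n06-Transition and 0.95 ± 0.20 in n17-M/TC-3, whereas it was −0.20 ± 0.20 in the dopaminergic periglomerular cells of n05-PGC-2 and −0.46 ± 0.13 in n03-GC-1. The ranges over libraries of n04 (1.56 to 1.71) and n03 (−0.63 to −0.29) lay far apart. The ratios furthest toward Nrxn2 were −1.77 ± 0.15 in Astro1 and −2.19 ± 0.26 in OPC, although other glia ranged up to 0.71 ± 0.36 in the microglia of MicroG2. The levels of Nrxn3 and Nrxn2 in MicroG2 (49.6 and 30.4 CPM) were near those of red blood cells (39.7 and 28.7 CPM). The ratio of MicroG2 is therefore not read as a balance of its own. OPC thus had Nrxn2 at a level within the spread of that of n17, but only 106 ± 33.4 CPM of Nrxn3.

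**Figure D2:**
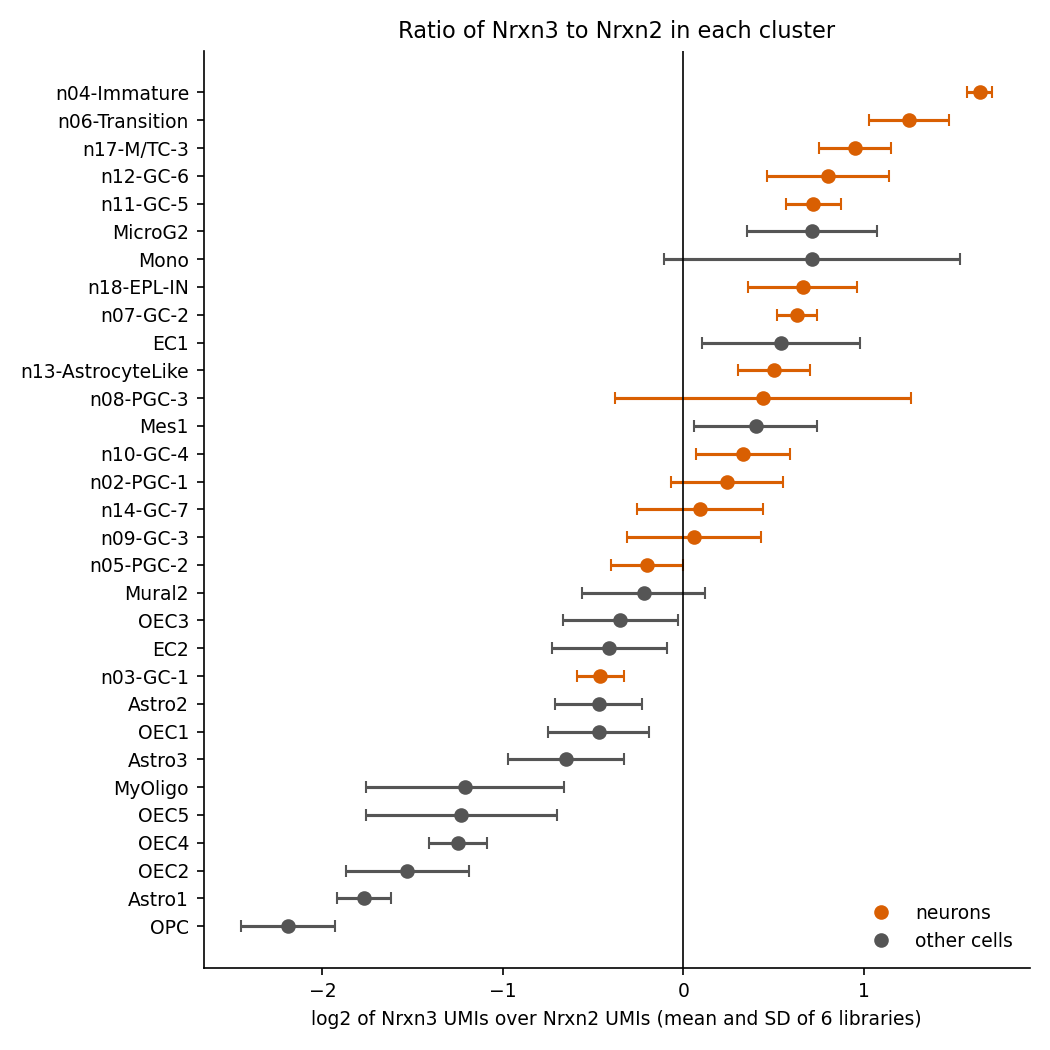
Log2 ratio of Nrxn3 UMIs to Nrxn2 UMIs in each cluster with at least 5 UMIs of both genes in every library, as mean and SD of 6 libraries. The ratio falls from 1.64 in n04-Immature at the top to −2.19 in OPC at the bottom.

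Nlgn1 (chromosome 3, 25421808 to 26332866) was uneven among the interneurons. It was highest in the granule cells of n09-GC-3, at 287 ± 36.4 CPM. The libraries gave 333 and 237 CPM in the control, 277 and 267 CPM in the naris occluded and 325 and 284 CPM in the trained group. The control overlapped both other groups, while both trained libraries were above both occluded ones. Next came n15-M/TC-1 (186 ± 158 CPM, 34 UMIs in 90 cells), n03-GC-1 (173 ± 29.6 CPM) and n17-M/TC-3 (156 ± 52.7 CPM), which did not differ beyond their spread. OPC had 142 ± 23.9 CPM and n05-PGC-2 had 135 ± 15.6 CPM. At the other end of the neurons, n04-Immature had 14.2 ± 3.07 CPM, n12-GC-6 had 19.2 ± 17.5 CPM and n08-PGC-3 had 19.9 ± 17.4 CPM. n03-GC-1, which was among the lowest neuronal clusters for Nrxn3, was thus among the highest for Nlgn1. After each cell was thinned to 500 UMIs, so that clusters could be compared at 1 depth, 12.5% of n09 cells and 8.20% of n03 cells had an Nlgn1 UMI, against 0.793% of n04 cells and 0.133% of the microglia of MicroG2. Without thinning, the shares were 20.4% in n03 (median 1416 UMIs), 2.25% in n04 (1668 UMIs) and 0.841% in MicroG2 (1847 UMIs).

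Nlgn2 (chromosome 11, 69823123 to 69837784) was highest in the excitatory output neurons. Its level in n17-M/TC-3 was 301 ± 58.1 CPM, with 271 and 330 CPM in the control, 242 and 252 CPM in the naris occluded and 316 and 396 CPM in the trained libraries. Both occluded libraries were below the other 4. The other M/T clusters and n18 had 193 ± 115 CPM (n15), 134 ± 80.7 CPM (n16) and 162 ± 93.2 CPM (n18), each from 26 to 33 UMIs. OPC had 122 ± 30.6 CPM and n09-GC-3 had 76.9 ± 16.7 CPM, and every other cluster was at or below 52.7 CPM. In n17, 130 of 927 cells had an Nlgn2 UMI after thinning, against 2.44% of n07 cells and 0.457% of red blood cells. Without thinning it was 28.4% in n17 (median 865 UMIs) and 2.28% in red blood cells (3894 UMIs). The hemoglobin genes Hba-a1 and Hbb-bs took 199183 and 390434 CPM of the red blood cells. Levels and shares of all other genes in these cells are lowered by that, wherever they are given here.

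Nlgn3 (chromosome X, 101299179 to 101321350) was highest in glia. OPC had 297 ± 32.4 CPM, with 276 and 313 CPM in the control, 254 and 283 CPM in the naris occluded and 312 and 345 CPM in the trained libraries, which overlapped between the control and the other groups. The next cluster, n18-EPL-IN, rested on 28 UMIs (177 ± 118 CPM), and its control libraries alone gave 48.9 CPM. The olfactory ensheathing cells, glia that wrap the axons of sensory neurons, had 165 ± 11.7 CPM in OEC1, 137 ± 8.81 CPM in OEC2, 105 ± 6.01 CPM in OEC4, 103 ± 17.3 CPM in OEC5 and 87.7 ± 19.6 CPM in OEC3. Astro1 had 113 ± 8.59 CPM and n07-GC-2 had 109 ± 18.2 CPM. Sensory neurons (n01-OSNs, 11.4 ± 9.87 CPM) and MicroG1 (8.88 ± 5.19 CPM) were near the level of red blood cells, which was 12.8 ± 8.51 CPM. All 3 neuroligins were therefore among the genes of OPC, whereas in the ensheathing cells Nlgn3 far outweighed Nlgn1 relative to other clusters. The log2 ratio of Nlgn1 to Nlgn3 UMIs was 1.51 ± 0.45 in n03, −0.62 ± 0.10 in Astro1, −1.07 ± 0.35 in OPC and −3.25 ± 0.35 in OEC1.

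The cerebellins were the most restricted of the 8 genes. Cbln1 (chromosome 8, 87468853 to 87472592), the family member known from the synapses of cerebellar granule cells, was found in the periglomerular cluster n08-PGC-3 (304 ± 120 CPM) and in n17-M/TC-3 (223 ± 36.0 CPM), which did not differ beyond their spread. In n17 the libraries gave 231 and 258 CPM in the control, 263 and 217 CPM in the naris occluded and 166 and 205 CPM in the trained group. The smaller M/T clusters followed with 108 ± 67.9 CPM in n15 and 72.1 ± 46.4 CPM in n16, and every other cluster was at or below 10.4 CPM. After thinning, 10.8% of n08 cells and 11.9% of n17 cells had a Cbln1 UMI, against 0.133% of MicroG2 cells. Without thinning it was 27.6% in n08 (median 1704 UMIs), 22.7% in n17 (865 UMIs) and 0.575% in MicroG2 (1847 UMIs).

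Cbln2 had 1 dominant site. n08-PGC-3 had 1283 ± 287 CPM, with 1140 and 1032 CPM in the control, 1224 and 1731 CPM in the naris occluded and 1035 and 1536 CPM in the trained libraries. The granule cells of n10-GC-4 followed with 222 ± 132 CPM, from as little as 41.7 CPM in control replicate 2 to 413 CPM in trained replicate 1. n17-M/TC-3 had 105 ± 15.3 CPM, and n09-GC-3 had 79.2 ± 74.5 CPM. In n08, 48.4% of cells had a Cbln2 UMI after thinning and 78.1% without it, against 0.256% and 0.691% of n04 cells, which had a median of 1668 UMIs.

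Cbln4 (chromosome 2, 172036336 to 172043466) was a gene of M/T cells. n17-M/TC-3 held 71.4% of all its UMIs and had 254 ± 63.9 CPM, with 247 and 203 CPM in the control, 306 and 222 CPM in the naris occluded and 355 and 192 CPM in the trained libraries. The spread within each condition was as wide as that between them. n15 had 102 ± 131 CPM from 14 UMIs and n16 had 47.0 ± 47.0 CPM from 8 UMIs, and every other cluster was at or below 7.21 CPM. A Cbln4 UMI was found in 9.82% of n17 cells after thinning and in 21.6% without it, against 0.457% and 0.913% of red blood cells.

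The M/T cells of n17 therefore had UMIs of all 3 cerebellins, and the periglomerular cells of n08 had Cbln1 and Cbln2. In n17, 70 of 927 cells had UMIs of both Cbln1 and Cbln4. Cbln4 was detected in 33.3% of the n17 cells with Cbln1 and in 18.1% of those without it, but the cells with Cbln1 were also deeper, with a median of 1078 UMIs against 817. In n08, 56 of 279 cells had both Cbln1 and Cbln2. There Cbln2 was detected in 72.7% of the cells with Cbln1 and in 80.2% of those without it, at medians of 2157 and 1528 UMIs.

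**Figure D3:**
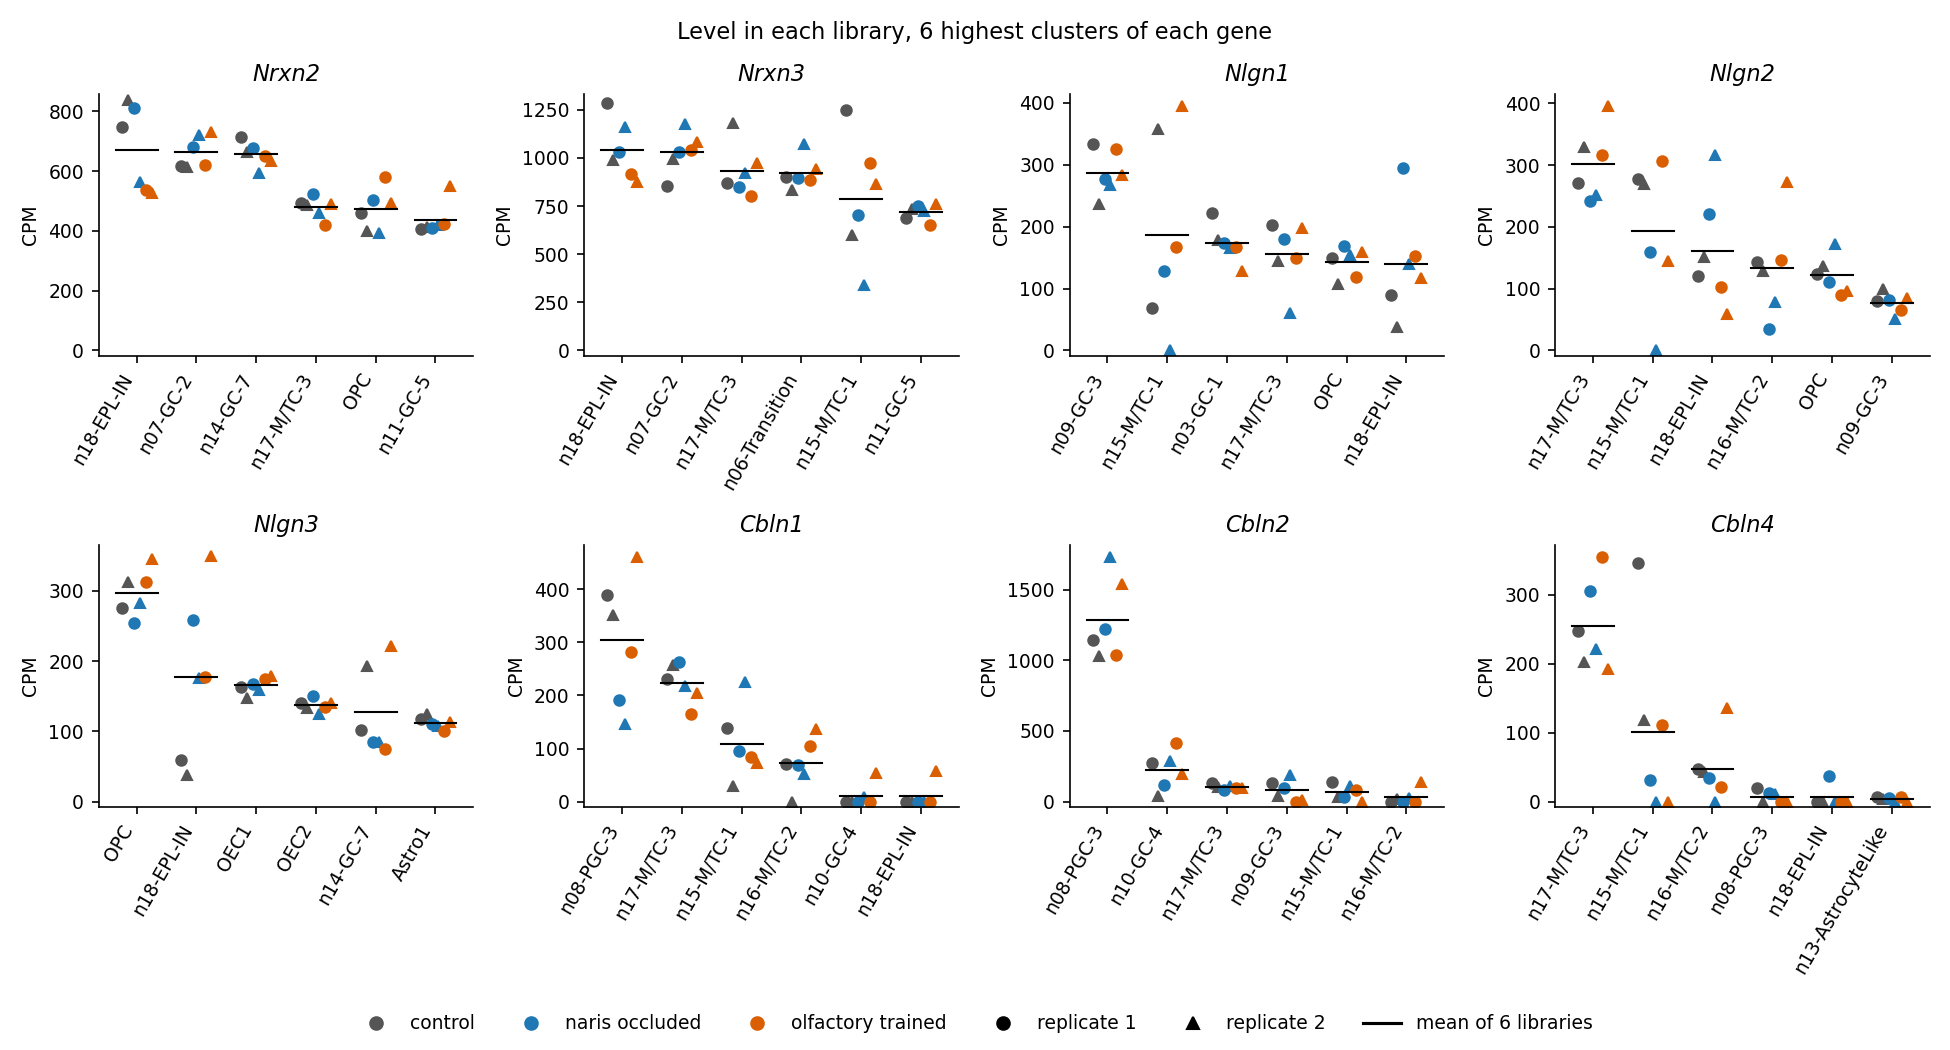
CPM of each gene in every library in its 6 highest clusters, with color for the condition, shape for the replicate and a line for the mean of 6 libraries. Cbln2 stands at 1032 to 1731 CPM in n08-PGC-3 and Cbln4 at 192 to 355 CPM in n17-M/TC-3, each above all its other clusters in mean, and points of the 3 conditions mix in most panels.

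The partners of the 8 genes were read from a list of 59 genes in 9 groups, 58 of which were in the count table. C1q-like proteins are relatives of the cerebellins, and C1ql1 was highest in OPC (819 ± 72.5 CPM) and C1ql3 in n18-EPL-IN (209 ± 195 CPM) and OPC (134 ± 12.6 CPM). Cbln3, the remaining cerebellin, had at most 2.14 CPM in any cluster. Of the receptors of cerebellins, Neo1, which encodes neogenin, was highest in the mesenchymal cells of Mes2 (125 ± 20.4 CPM). Among other postsynaptic binders of neurexins, the calsyntenins Clstn1 and Clstn3 were highest in n18-EPL-IN (1452 ± 385 and 898 ± 177 CPM) and n17-M/TC-3 (954 ± 159 and 541 ± 72.6 CPM). Levels of partner genes were not computed with TMM factors, which lowered both neurexins in n18 more than in n17. The order of n18 and n17 may therefore depend on the scaling. Neurexophilins are secreted ligands of neurexins. Nxph1 was highest in n02-PGC-1 (707 ± 62.5 CPM), and Nxph4 in n16-M/TC-2 (641 CPM, between 542 and 783 CPM over the 6 libraries), with 53.2 ± 15.1 CPM in n17. The M/T clusters thus differed in their secreted neurexin ligands, since n16 had far more Nxph4 than n17 and lower mean levels of Cbln1 and Cbln4.

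MDGA proteins block neuroligins from binding neurexins. Mdga1 was 201 ± 36.9 CPM in n17, where Nlgn2 was highest and 184 ± 85.4 CPM in n09-GC-3. Mdga2 was 112 ± 88.7 CPM in n16 and 105 ± 48.4 CPM in n10-GC-4. Of the scaffolds, Cask, which binds the tail of neurexins, was 299 ± 49.0 CPM in OPC and 293 ± 32.4 CPM in n02-PGC-1, and its partner Lin7a was 165 ± 67.4 CPM in n09-GC-3, with 163 ± 34.7 CPM in the mural cells of Mural2. Magi1, a scaffold of neuroligins, was 302 ± 127 CPM in n15-M/TC-1, with 285 ± 31.0 CPM in n02. Shank1, a scaffold of excitatory synapses, was 297 ± 68.2 CPM in n12-GC-6, close to the 293 ± 39.1 CPM of n06-Transition. Khdrbs1 and Khdrbs2 encode RNA-binding proteins of the family that directs the splicing of neurexins. Khdrbs1 was highest in n04-Immature (211 ± 22.4 CPM) and Khdrbs2 in n16-M/TC-2 (140 ± 103 CPM). Of other adhesion genes, the receptor phosphatase gene Ptprd was 2167 ± 776 CPM in n15-M/TC-1, with 831 ± 155 CPM in n17, and Il1rapl1, which encodes a partner of such phosphatases, was 769 ± 53.5 CPM in n06-Transition, close to the 731 ± 55.6 CPM of n07-GC-2. A further pair of genes was picked after their values were seen. Gphn, the gene of the inhibitory scaffold gephyrin, was 212 ± 38.0 CPM in n08-PGC-3 and at most 92.9 CPM elsewhere, and Lrrtm1, which encodes a postsynaptic neurexin ligand, was 135 ± 20.6 CPM in n17 and at most 32.3 CPM elsewhere.

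In the study, immature adult-born neurons (n04-Immature) mature along axis A, with 8 clusters of periglomerular and granule cells, or along axis B, with 3 clusters (n06-Transition, then the granule cells of n07-GC-2 and of n09-GC-3). The levels on each axis were set against those of n04 as a log2 ratio with a pseudocount of 1 CPM. The neurexins parted on axis A. Nrxn2 was higher than in n04 on both axes, by 0.69 ± 0.11 (axis A) and 1.26 ± 0.09 (axis B), in 6 of 6 libraries each. The main clusters of axis B were shallower and richer in mitochondrial UMIs than n04, with a median of 730 UMIs and 15.2% in n06 and 882 UMIs and 17.4% in n07, against 1668 UMIs and 8.44% in n04. The ratio of Nrxn2 on axis B was 1.16 among cells with at least 1000 UMIs, 0.98 with TMM factors and 0.95 with the clusters weighted equally. On axis A it was 0.49 with TMM factors and 0.80 with the clusters weighted equally. The part of RNA quality in these ratios was not tested. Nrxn3 was lower than in n04 on axis A, at −0.59 ± 0.06 in 6 of 6 libraries, and higher on axis B, with 0.39 ± 0.10 in 6 of 6 libraries. The ratio on axis B was smaller under other settings, at 0.15 among cells with at least 1000 UMIs, 0.10 with TMM factors and 0.06 with the clusters weighted equally. Nrxn3 was 717 ± 38.3 CPM in n04 itself, so it was already high in immature neurons. The clusters of an axis were not alike. On axis B, n06 and n07 stood above n04, while n09 had 294 ± 64.0 CPM. On axis A, those of n11, n14 and n12, at 703 to 717 CPM, stood at the level of n04, while n03 (196 ± 14.1 CPM), n02 (312 ± 41.0 CPM) and n05 (375 ± 31.1 CPM) stood lowest.

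The neuroligins differed from each other in the size of the ratio. Nlgn1, at 14.2 ± 3.07 CPM in n04, was higher by 2.51 ± 0.51 (axis A) and 2.61 ± 0.42 (axis B), to 85.2 ± 13.9 and 91.3 ± 16.8 CPM, in 6 of 6 libraries each. With a pseudocount of 10 CPM these ratios were 1.97 and 2.06, and with the clusters weighted equally they were 2.22 and 3.28. Axis B was uneven, with 287 ± 36.4 CPM in n09, 83.3 ± 20.1 CPM in n07 and 63.0 ± 9.15 CPM in n06. On axis A, n12, n08 and n10 (36.8 ± 29.7 CPM from 17 UMIs) did not differ from n04 beyond their spread, and n03 and n05 stood highest. Nlgn3 was higher by 0.61 ± 0.25 and 0.92 ± 0.30, again in 6 of 6 libraries each. Its levels in n06, n08, n09, n10 and n12 did not differ from the 47.2 ± 6.80 CPM of n04 beyond their spread. Nlgn2, summed over an axis, stayed near the 41.9 ± 6.21 CPM of n04, with log2 ratios of 0.02 ± 0.17 (axis A) and 0.18 ± 0.16 (axis B). The latter was −0.10 with TMM factors and 0.40 with the clusters weighted equally, so its direction depended on the scaling. The clusters parted for Nlgn2 as well. On axis B, n09 had 76.9 ± 16.7 CPM, while on axis A n11 (27.8 ± 2.74 CPM) and n12 (24.0 ± 16.1 CPM) lay below n04. Cbln1 and Cbln2, almost absent from n04 at 2.47 ± 1.74 and 4.04 ± 1.79 CPM, were higher on axis A by 2.25 ± 0.61 and 3.83 ± 0.74, in 6 of 6 libraries each. These values do not describe the whole axis. Cbln1 was high in n08-PGC-3 and between 1.77 and 3.17 CPM in n02, n03, n05, n11 and n12, close to n04, and Cbln2 was high in n08 and n10 but 4.07 ± 3.44 CPM in n02 and 3.64 ± 5.65 CPM in n05. The size also depended on the settings. With a pseudocount of 10 CPM the axis A ratios were 0.97 for Cbln1 and 2.48 for Cbln2, and with the clusters weighted equally they were 3.66 and 5.33. On axis B, Cbln2 was higher by 2.02 ± 0.98 and Cbln1 by 0.60 ± 0.77, the latter within its spread and in 4 of 6 libraries. With a pseudocount of 10 CPM these were 1.07 and 0.18. Cbln4 had at most 2.45 ± 2.28 CPM on either axis.

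**Figure D4:**
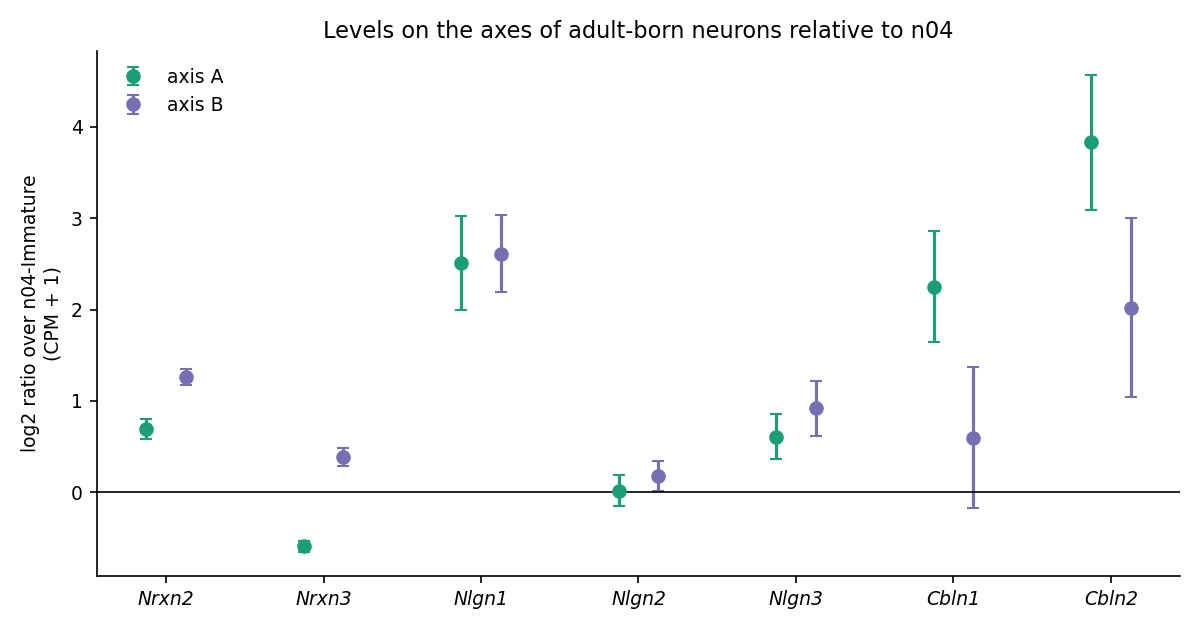
Log2 ratio of CPM + 1 on axis A (green) and axis B (purple) over n04-Immature for 7 genes, as mean and SD of 6 libraries. Cbln4 is left out for its low counts, Nrxn3 is the gene below 0 on axis A (−0.59), and Nlgn1 is above 2.5 on both axes.

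The genes with the most similar pattern over the 40 clusters were found by the Pearson correlation of log2(CPM + 10), over genes with at least 50 CPM in some cluster. The clusters share their libraries, and r is given as a description. Nrxn2 was closest to Tram1l1 (r = 0.940), Cadm2 (0.935), which encodes a synaptic adhesion molecule, and Grik5 (0.935), a kainate receptor subunit. Nrxn3 was closest to Atcay (0.934), Snap91 (0.934) and Cadps (0.930), the last of which acts in the release of dense-core vesicles. Over the 18 neuronal clusters alone, r was lower, at 0.876, 0.752 and 0.743 for the genes named with Nrxn2. For those named with Nrxn3 it was 0.719, 0.701 and 0.618. Nlgn1 was closest to Pcdh11x (0.865), Dner (0.848) and Lnx1 (0.846), with 0.597, 0.692 and 0.676 over the neuronal clusters. Nlgn2 was closest to Ptprs (0.892), the gene of a presynaptic receptor phosphatase, Lrp3 (0.887) and Scn8a (0.868), a sodium channel gene. Nlgn3 was closest to Tmem121 (0.930), Slc22a17 (0.904) and Tspan3 (0.872). Over the neuronal clusters, r was 0.835, 0.775 and 0.855 for the genes named with Nlgn2. For those named with Nlgn3 it was 0.802, 0.829 and 0.903.

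Of the genes closest to the cerebellins, all but A230006K03Rik were highest in n08 or n17. Cbln4 was closest to Adcyap1 (0.953), the gene of the peptide PACAP, Ankrd34c (0.949) and the M/T marker Cdhr1 (0.940). Cbln1 was closest to Galnt14 (0.939), Gm2694 (0.927) and Reln (0.864), the gene of reelin, which is made by M/T cells. Cbln2 was closest to the same Gm2694 (0.860), Vwc2l (0.806) and A230006K03Rik (0.791), the last of which was highest in n09-GC-3. Ranks gave lower values. Spearman's rho was 0.493, 0.328 and 0.395 for the genes named with Cbln4, 0.695, 0.642 and 0.608 for those with Cbln1, and 0.634, 0.329 and 0.574 for those with Cbln2, in the same order. Gm2694 is a long noncoding RNA gene on chromosome 8, from 87472812 to 87525554. In the annotation 219 bases lie between its lower coordinate and the upper coordinate of Cbln1, and the strand of either gene was not read. It was 899 ± 293 CPM in n08-PGC-3 and 95.6 ± 47.0 CPM in n17-M/TC-3. Its profile was therefore tilted to n08 far more than that of Cbln1, whose levels in the 2 clusters did not differ beyond their spread. Among the 8 genes themselves, r was 0.872 for Nrxn2 and Nrxn3, 0.812 for Cbln1 and Cbln4, and 0.808 for Nlgn1 and Nlgn2. Over the 18 neuronal clusters alone it was 0.833, 0.781 and 0.711, and it was 0.825 for Nlgn2 and Cbln4.

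To ask whether a change in odor input altered these genes within a cell type, counts summed per library were compared between conditions in each of the 38 clusters with at least 10 cells in every library, with edgeR's quasi-likelihood test and Benjamini-Hochberg adjustment over all pairs of a gene and a cluster. The clusters n15 and n16 had fewer cells. After the filter on low counts, 127 pairs of 1 of the 8 genes and a cluster could be tested, 35 for Nrxn3, 33 for Nrxn2, 22 for Nlgn3, 15 for Nlgn1, 14 for Nlgn2, 5 for Cbln2, 2 for Cbln1 and 1 for Cbln4. None of the 127 pairs had an adjusted p under 0.05 in edgeR in any of the 3 comparisons, and none had in DESeq2. Over all 178070 pairs tested, edgeR called 0.0466% between naris occluded and control, 0.0590% between trained and control and 0.140% between trained and naris occluded, and a count of 0 among 127 is to be read against these shares. At an unadjusted p under 0.05 in edgeR there were 4, 2 and 7 of the 127 pairs, or 3.15%, 1.57% and 5.51%, against 4.78%, 5.73% and 7.21% of all pairs. In DESeq2 there were 1, 0 and 0, against 0.678%, 0.967% and 1.5% of all pairs. Since each group had 2 libraries, these p-values measure the spread between such pools.

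The lowest unadjusted p belonged to Cbln1 in n08-PGC-3. Its level was 390 and 351 CPM in the control, 191 and 147 CPM in the naris occluded and 282 and 461 CPM in the trained libraries. Both occluded libraries were below the other 4. The fitted log2 difference between naris occluded and control was −1.16 (SE 0.31, from 29 and 71 UMIs), with an unadjusted p of 0.000718 and an adjusted p of 0.437 in edgeR, and DESeq2 gave an unadjusted p of 0.0287. Between trained and naris occluded it was 1.01 (SE 0.35, adjusted p = 0.447 in edgeR), and between trained and control −0.15 (SE 0.30, adjusted p = 0.990). A Cbln1 UMI was found in 18 of 53 and 19 of 53 cells of n08 in the control, 9 of 41 and 12 of 62 in the naris occluded and 15 of 54 and 4 of 16 in the trained libraries. The library with 16 cells, the fewest, was trained replicate 2. For Cbln2, which shares the cluster, the log2 difference between naris occluded and control was 0.43 (SE 0.23, adjusted p = 1.000 in edgeR), and it ranged from 0.13 to 0.67 as each library was left out. In n17-M/TC-3 the difference of Cbln1 between naris occluded and control was −0.11 (SE 0.25, adjusted p = 1.000 in edgeR). None of these passed the threshold.

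The other genes were read in the best-measured of their 3 highest tested clusters. In n07-GC-2, the log2 difference between naris occluded and control was 0.11 (SE 0.16) for Nrxn2 and 0.18 (SE 0.15) for Nrxn3, and between trained and control it was 0.10 (SE 0.16) and 0.17 (SE 0.15). For Nlgn1 in n03-GC-1, the control libraries (222 and 178 CPM) were above the naris occluded (174 and 166 CPM) and the trained libraries (167 and 129 CPM), and the log2 differences were −0.28 (SE 0.18) and −0.44 (SE 0.20). As each library was left out, they ranged from −0.40 to −0.10 and from −0.70 to −0.27. For Nlgn2 in n17, it was −0.38 (SE 0.25) between naris occluded and control and 0.62 (SE 0.25) between trained and naris occluded. For Nlgn3 in OEC1 and Cbln4 in n17, all differences lay between 0.07 and 0.29, with SEs of 0.14 to 0.29. The adjusted p of these comparisons in edgeR was 0.582 or more. Nlgn1 was more often lower, in 11 of 15 tested clusters after occlusion and in 13 of 15 after training. Its medians were −0.23 and −0.20, while the median over all pairs was 0.001 in both. Nlgn2 leaned the same way, with lower values in 9 and 10 of 14 clusters. Nlgn3 was lower in 9 and 12 of 22, Nrxn2 in 19 and 11 of 33 and Nrxn3 in 19 and 15 of 35. Between trained and naris occluded, Nlgn1 was higher in 8 clusters and lower in 7, with a median of 0.01, and Nlgn2 was higher in 7 and lower in 7. The share of lower pairs over all genes was not computed, so the counts are not read as a result about these genes. Both comparisons with the control share its libraries, the clusters share the pools, and the counts are a description without a test.

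**Figure D5:**
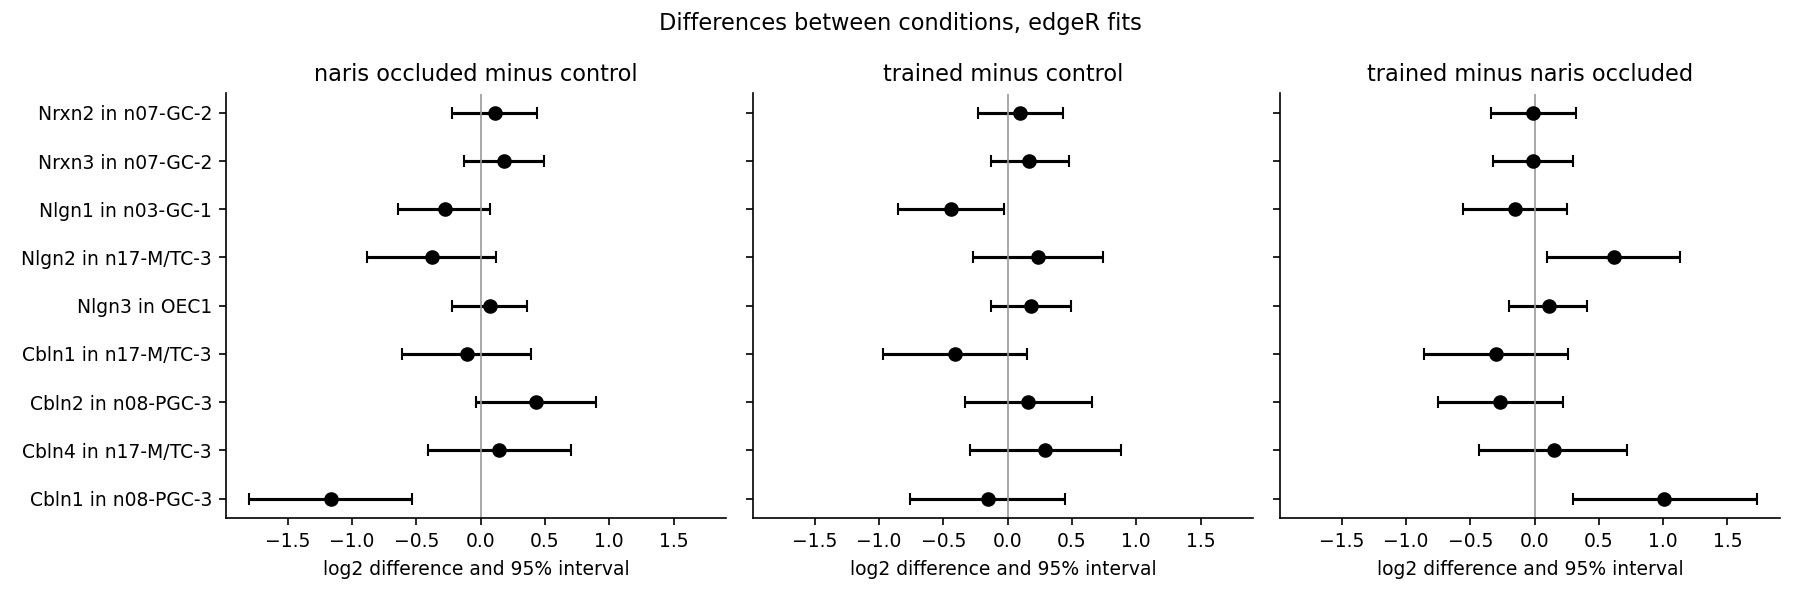
Log2 difference and its 95% interval from the edgeR fits for 9 pairs of a gene and a cluster, in the 3 comparisons of conditions. Cbln1 in n08-PGC-3 lies furthest from 0, at −1.16 after naris occlusion, and no pair has an adjusted p under 0.05.

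Of the 58 partner genes, 674 pairs of a gene and a cluster could be tested, and none had an adjusted p under 0.05 in edgeR or in DESeq2 in any comparison. At an unadjusted p under 0.05, edgeR gave 28 pairs between naris occluded and control, 28 between trained and control and 49 between trained and naris occluded. These were 4.15%, 4.15% and 7.27% of the partner pairs, against the 4.78%, 5.73% and 7.21% of all pairs. DESeq2 gave 6, 1 and 4, or 0.890%, 0.148% and 0.593%, against 0.678%, 0.967% and 1.5%. The lowest p belonged to C1ql1 in n07-GC-2, which was 40.6 and 36.8 CPM in the naris occluded and 10.6 and 10.4 CPM in the control libraries, a log2 difference of 1.81 (SE 0.43, adjusted p = 0.203 in edgeR).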

How the data were processed

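Dissociated olfactory bulb cells were sequenced with 10x Genomics 3′ libraries, 2 per condition. Per the labels, the authors processed reads with Cell Ranger 2.0.0 on build mm10 and clustered with Seurat 2.2.1, keeping cells with at least 200 genes and removing doublets, and the deposited table holds raw UMI counts of 18560 genes in 52549 barcodes. The deposited annotation also gives, as the authors computed it, each cell's mitochondrial UMIs as a fraction of its total. Their annotations gave cluster and library, some cluster numbers differ from the paper's, and 755 neurons absent from the neuron annotation were left out of the clusters. Gene positions are from RefSeq on GRCm38.p6. No protein or promoter sequence is shown.

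Counts were summed per cluster and library and divided by the total to give CPM. Conditions were compared with edgeR 4.0.16 in R 4.3.3 (TMM factors, filterByExpr, quasi-likelihood test, 6 libraries per fit) in clusters with at least 10 cells in every library, with Benjamini-Hochberg adjustment over all pairs of a contrast and a threshold of 0.05, and with DESeq2 1.42.0 as an alternative. The fits were checked on simulated counts. Shares of cells with a UMI were computed after thinning to 500 UMIs, which left out no cell, and these shares and the Poisson intervals cover counting error only, whereas the edgeR intervals include the spread between libraries. Named were all 8 genes, the 3 most similar genes of each, every partner gene that passed a test and the 2 partner genes of each group with the highest cluster mean. Outside this rule, Cbln3 was named as the remaining cerebellin, and Gphn and Lrrtm1 after their values were seen. The result for 1 gene that this rule names is not reported here. The 8 genes, the lists and the tests were chosen with earlier results of these data known. Same-numbered libraries are not stated to share mice or a day.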

Additional observations from a re-analysis of the deposited data

Results flagged for a closer look

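In several clusters every trained library lay on the same side of every library of the other group, while in another cluster the same gene lay on the opposite side. With 2 libraries in a group, such separation is no call, and it was common in both directions. Between trained and control, both trained libraries were higher in 24 of the 127 pairs and lower in 17, and 86 overlapped. Between trained and naris occluded, these counts were 31, 15 and 81. Between naris occluded and control, both occluded libraries were higher in 23 pairs and lower in 25, and 79 overlapped. The share over all genes was not computed, so neither these counts nor the pairs named below are read as a result about these genes. The difference between the clusters was not tested, and no value passed the threshold in edgeR. For trained minus control, the log2 difference of Nrxn2 was 0.10 in n07-GC-2, −0.39 in n18-EPL-IN and −0.14 in n14-GC-7. The groups of Nrxn2 in n07 were apart by a very narrow margin, and without trained replicate 2 the difference there was −0.04. For Nrxn3 it was 0.17 in n07-GC-2 and −0.17 in n18-EPL-IN. For trained minus naris occluded, Nlgn2 differed by 0.62 in n17-M/TC-3 and −0.59 in OPC, and Cbln1 by 1.01 in n08-PGC-3 and −0.30 in n17-M/TC-3.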

How the results depend on the processing

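None of the pairs of 1 of the 8 genes and a cluster had an adjusted p under 0.05 under any of the 14 alternatives. These were DESeq2's size factors and its test, no filter on low counts, the replicate number as a block, cells with at least 1000 UMIs or under 20% mitochondrial UMIs, adjustment within each cluster, summed M/T clusters and each library left out, where the lone library of a group is assumed to vary like the others. For Cbln1 in n08-PGC-3, naris occluded minus control, the log2 difference ranged from −1.33 to −0.99. Its adjusted p in edgeR was 0.457 with the replicate block and 0.244 with adjustment within each cluster. Among the alternatives with all 6 libraries, the lowest adjusted p of any of the 8 genes was 0.0683 in edgeR. It came from trained minus naris occluded with no filter on low counts.

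TMM factors over clusters moved 5 of the highest levels, Nrxn2 in n18 to 376 CPM, Nrxn3 in n18 to 589 CPM, Nlgn1 in n09 to 211 CPM, Nlgn3 in OPC to 244 CPM and Cbln2 in n08 to 963 CPM, and turned the axis B ratio of Nlgn2 to −0.10. For the axis ratios, but not for the levels, this setting was chosen after seeing the data. Among cells with at least 1000 UMIs, the naris occluded minus control difference turned to −0.07 for Nrxn3 in n07 and 0.07 for Cbln1 in n17, and the trained minus naris occluded difference of Nrxn3 in n07 to 0.07 (0.00 with no filter on low counts). The cause was not tested.

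Leaving out 1 library turned other differences, none of which had passed the threshold. In n07, Nrxn2 ranged from −0.04 to 0.21 for trained minus control and from −0.14 to 0.11 for trained minus naris occluded, and Nrxn3 from −0.08 to 0.06 for the latter. In n17, Cbln4 ranged from −0.13 to 0.31 for naris occluded minus control, from −0.32 to 0.68 for trained minus control and from −0.46 to 0.56 for trained minus naris occluded. In n08, trained minus control ranged from −0.06 to 0.37 for Cbln2 and from −0.38 to 0.18 for Cbln1.

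Replicate numbers were not shown to pair the libraries, since the deviations of same-numbered libraries did not correlate above 0.1 for every pair of groups in each of the 7 clusters checked, or in n17-M/TC-3 for any (−0.00898, 0.081 and 0.0157). In n04-Immature (0.168, 0.181 and 0.134) and Astro1 (0.166, 0.136 and 0.115) they did. With the replicate block, 0 pairs of the 8 genes were called in edgeR, and Cbln1 in n08 differed by −1.17 between naris occluded and control. After the filter on low counts, Cbln1 could be tested in 2 clusters and Cbln4 in 1, and how far depth or restricted expression sets this was not tested. Over all pairs tested, in the order naris occluded minus control, trained minus control and trained minus naris occluded, there were 83, 105 and 250 calls as reported, 12, 15 and 32 with the DESeq2 test, 270, 377 and 636 with no filter, 156, 209 and 448 with the replicate block and 121, 166 and 311 with adjustment within each cluster. Leaving out 1 library gave 137 to 293, 81 to 562 and 276 to 1099, the highest of each without trained replicate 2.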

Other observations

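The 755 neurons of the whole-bulb annotation that carry no neuronal cluster had 398 CPM of Nrxn2 and 843 CPM of Nrxn3, with 95% Poisson intervals of 373 to 424 and 807 to 881 that cover counting error only. Their neuroligins stood at 93.4 CPM (Nlgn1), 79.0 CPM (Nlgn2) and 75.7 CPM (Nlgn3). Their cerebellins were low, at 13.6 CPM for Cbln1, 29.4 CPM for Cbln2 and 5.38 CPM for Cbln4. The median cell among them had 2213 UMIs.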
